A study of Mus musculus with 4 samples.

Results

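Glycolysis and the pentose phosphate pathway were described in the mouse lens through 38 genes, the textbook enzymes, transporters and regulators of glucose use. They were chosen by name, with earlier results of these data known. The genes were found on the array by the symbol given for each probe, with Pkm also accepted under its older symbol Pkm2. Of the 38 genes, 36 had a probe (63 probes) and 31 could be tested, among 11516 genes tested in all. Hk2 and Ldhb matched no probe by symbol and were not analysed here. Slc2a3, Slc16a1, Slc16a3, Pfkfb3 and Pdk4 did not reach the detection filter, which asked for a detection p under 0.05 in at least 2 of the 4 samples.

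Glycolysis splits glucose into pyruvate in the cytosol and yields ATP without oxygen, and lactate dehydrogenase then restores the NAD+ that it uses. The pentose phosphate pathway branches off after the hexokinase step and makes NADPH, which keeps glutathione reduced, and ribose phosphate for nucleotides. The lens has no blood vessels of its own and its mature fiber cells have lost their mitochondria, so that it relies largely on anaerobic glycolysis, and both its epithelium and its fibers need NADPH against oxidation.

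CELF1 is an RNA-binding protein that acts on mRNA stability, splicing and translation. The samples were lenses of mice at postnatal day 6, with 1 lens for each replicate, and the arrays compared 2 Celf1 cKO lenses with 2 Control lenses, each pair lettered A and B. Each cKO mouse had a Celf1 lacZ knock-in allele (lacZKI, a germline null), a Celf1 allele with exon 5 between loxP sites (flox), and the Pax6GFPCre transgene, which is active in the lens lineage from the placode stage onwards and also in the pancreatic lineage. The Control mice were Celf1 lacZKI/+, so both groups shared a germline loss of 1 Celf1 copy, and what was compared is the loss of the remaining copy in the lens together with the flox and Cre alleles. Strains C57BL/6 and FVB both contributed to their background. Whether the lenses of a group came from different litters is not stated, and the p-values measure only the spread between these lenses. RNA was measured on Illumina MouseWG-6 v2.0 BeadChips, which give a fluorescence intensity for each 50-base probe.

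Celf1 itself was reduced, at a log2 signal of 7.51 and 7.01 in the cKO and 8.78 and 8.62 in the Control lenses (log2 fold change -1.44 ± 0.20, SE, limma adjusted p = 0.0109). Whether its probes lie in the deleted exon was not determined. Before scaling, 16261 and 16925 probes were detected on the cKO arrays against 14542 and 14180 on the Control arrays, while the median intensities overlapped, and the number of probes detected cannot be told apart from genotype.

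Markers of the cell types that a lens sample could hold also differed between the groups. Of 11 lens fiber markers with a probe, 10 were detected on every array (Gja3 on none), and 8 of these 10 were lower in cKO by their means. Cryga, a gamma-crystallin, was reduced by -0.67 and Bfsp2, a beaded filament protein, by -0.74 (limma adjusted p = 0.0322 and 0.0255). The summed log2 signal of the fiber markers was 17.62 and 17.57 in cKO and 17.76 and 17.80 in Control. Of 5 lens epithelium markers with a probe, 4 were detected on every array (Pax6 on none) and 3 of these 4 were lower in cKO by their means. Foxe3, a transcription factor of the lens epithelium, was reduced by -0.82 (limma adjusted p = 0.0177), and the summed signal was 9.77 and 10.12 in cKO and 10.32 and 9.96 in Control.

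Of 7 retina markers 1 was detected in each cKO lens and 0 in the Control lenses, with Sag, Gnat1, Prph2, Rcvrn, Crx and Nrl on none. Of 7 pigment cell markers 3 were detected in cKO B and 1 in each other lens, with signals of 4.77 and 4.58 in cKO and 4.77 and 5.40 in Control for the 1 gene tested, Pmel, which was not called. Vessel markers (5 or 6 of 6 detected on each array) had a summed log2 signal of 9.07 and 9.06 in cKO against 8.79 and 8.71 in Control, with 3 markers higher and 3 lower in cKO and Emcn, an endothelial sialomucin, elevated by 1.15 (limma adjusted p = 0.0185). Macrophage markers (2 to 4 of 6, with Ptprc and Itgam on none) had 6.54 and 6.51 against 6.33 and 6.41, with 1 of 3 tested higher. That marker was Cd68, a lysosomal glycoprotein, which was called elevated and was above background in the cKO lenses alone. Muscle markers (1 or 2 of 6) had 5.82 and 5.80 against 5.55 and 5.75. The summed signal of blood markers overlapped, with 9.62 and 8.51 in cKO and 9.36 and 9.09 in Control, while Slc4a1, the anion exchanger of red cells, was reduced by -1.05 (limma adjusted p = 0.0119) and Alas2 was detected on none. Xist was detected in both cKO lenses, at 7.48 in A and 7.33 in B, and in neither Control lens. The Y-linked Ddx3y, detected in all 4 lenses, read 6.86 in cKO A and 4.83 in cKO B against 9.06 and 8.88 in Control. Both transcripts were thus above background in cKO A, although a replicate is described as 1 lens, and the reason was not tested. The sex-linked transcripts also differ between the groups. The part of these differences in the results was not tested. In whole lenses, a change in the share of a cell type and a change of RNA per cell cannot be told apart.

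Of 14 genes tested for the glycolytic reactions, 6 were elevated in the cKO lenses and 1, Pfkm, was reduced, while Hk1, Pfkl, Aldoc, Gapdh, Pgam1, Eno1 and Pkm were not called. Ldha was elevated, and of 8 pentose phosphate genes none was called. Calls required a limma adjusted p under 0.05, a log2 fold change beyond 0.58 in either direction, and a log2 signal that averaged over 4.6. Of the 31 members tested, 8 were called (25.8%), beside 11.7% of all genes. The list was chosen with earlier results of these data known, so such shares describe the members and test nothing. The 7 elevated members (22.6%, beside 6.01% of all genes) were Gpi1, Pfkp, Aldoa, Tpi1, Pgk1, Eno2 and Ldha. Pfkm was the only reduced member, beside 5.66% of all genes. For 24 members (77.4%, beside 62.3% of all genes) both cKO values lay above, or both below, the values of the Control lenses. Of these, 18 were higher in both cKO lenses (32.6% of all genes were) and 6 were lower (29.7% of all genes were). Among the 18 were Pdk2 and Rpe, which passed the detection filter through the cKO lenses alone. The median log2 fold change of the members tested, with Pdk2 and Rpe, was 0.20, against 0.01 over all genes. With a lens left out, the members called numbered 4 (no cKO A), 5 (no cKO B), 5 (no Control A) and 1 (no Control B).

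**Figure D1:**
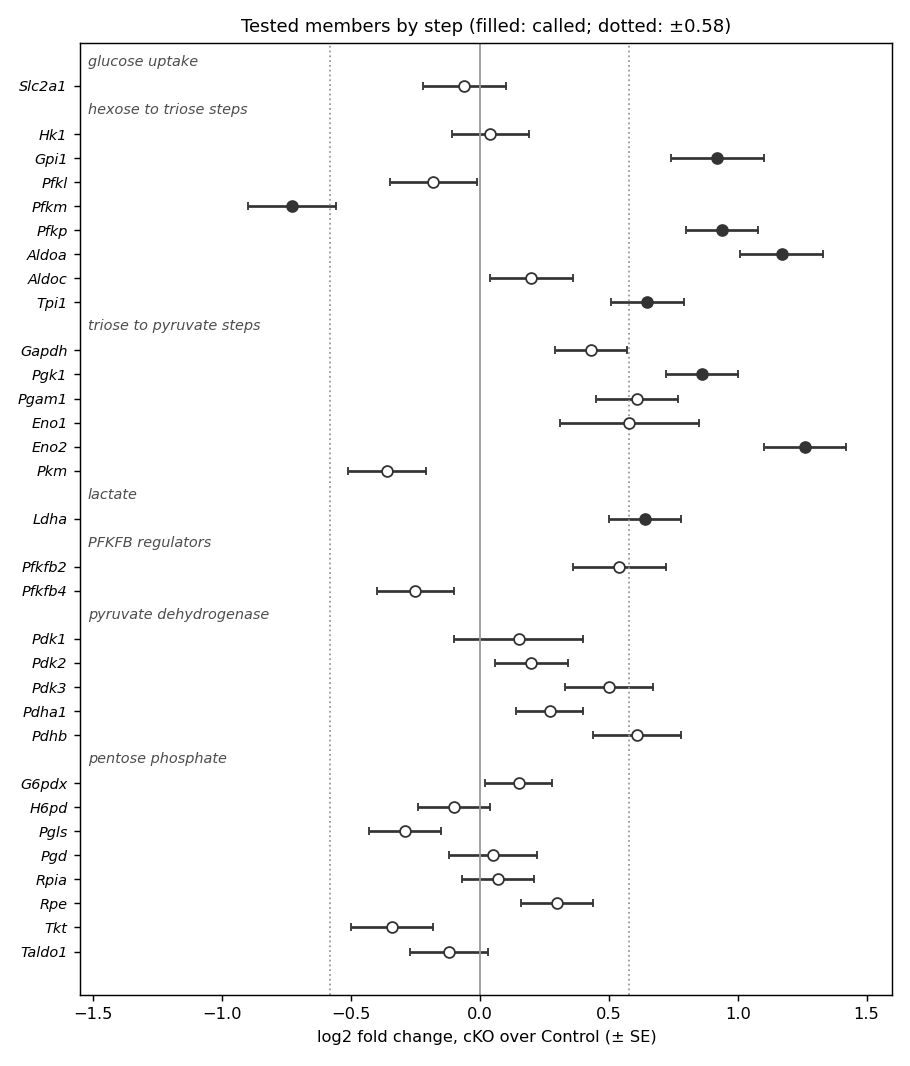
The log2 fold change of cKO over Control is plotted on the x axis for each of the 31 tested members, grouped by step from top to bottom, with bars for the SE of the limma fit (n = 2 per group) and filled points for called genes. The filled points lie between 0.64 and 1.26 except for Pfkm at -0.73, and all pentose phosphate genes lie between -0.34 and 0.30, the latter being Rpe, which was above background in the cKO lenses alone.

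Glucose uptake was represented by a single tested gene. Slc2a1 encodes GLUT1, the transporter that brings glucose into lens epithelial and fiber cells. Its log2 signal was 11.27 in cKO A, 11.00 in cKO B, 11.26 in Control A and 11.13 in Control B. The groups overlapped, and the log2 fold change was -0.06 ± 0.16 (SE, limma adjusted p = 0.826). Slc2a3, which encodes the transporter GLUT3, was above background on no array.

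The hexose to triose steps held 5 of the 8 called members, 4 elevated and 1 reduced, among 8 genes tested. Of all genes, 6.01% were elevated and 5.66% reduced. Hk1 encodes a hexokinase, which traps glucose as its phosphate. Hk1 lay close to background, at log2 4.83 and 4.93 in cKO and 4.72 and 4.97 in Control, and the groups overlapped. Control A did not detect it.

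Gpi1 encodes glucose phosphate isomerase, which turns glucose phosphate into fructose phosphate. The log2 signal of Gpi1 was 7.83 in cKO A, 7.38 in cKO B, 6.66 in Control A and 6.71 in Control B. Both cKO lenses were above both Control lenses, which were close to each other. Gpi1 was elevated by 0.92 ± 0.18 (SE) on the log2 scale, or 1.89-fold (limma adjusted p = 0.0259). Its bright probe read 10.33 and 9.84 in cKO against 9.05 and 9.12 in Control (limma adjusted p = 0.0241), and its dim probe was above background in the cKO lenses alone, so that the averaged fold includes a difference against background. The Gpi1 call held only when cKO B was the lens left out.

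Phosphofructokinase makes the committed step of glycolysis, and its 3 isozyme genes did not move together. Pfkp, the platelet type, was elevated, with a log2 signal of 5.57 in cKO A, 5.51 in cKO B, 4.68 in Control A and 4.52 in Control B. The cKO lenses nearly coincided and lay above both Control lenses, where Control B had no probe of Pfkp above background. Pfkp rose by 0.94 ± 0.14 (SE) on the log2 scale, or 1.92-fold (limma adjusted p = 0.0137), a size that depends on the background level in Control. The log2 fold change was 1.42 without cKO A and 1.49 without cKO B, when 1 of its probes no longer passed the detection filter. The call was lost without Control B, and in 6 of 17 alternatives that used all lenses.

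Pfkm, the muscle type, was reduced, with a log2 signal of 5.70 in cKO A, 5.36 in cKO B, 6.17 in Control A and 6.35 in Control B. Both cKO lenses were below both Control lenses. The log2 fold change was -0.73 ± 0.17 (SE), which made Control 1.66-fold higher (limma adjusted p = 0.0392). The call was lost whichever of the 4 lenses was left out, and in 8 of 18 alternatives that used all lenses. Before scaling, the intensities of its brightest probe overlapped, at 150.8 and 128.9 in cKO and 142.1 and 157.7 in Control.

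Pfkl, the liver type, was not called. Its log2 signal was 7.63 in cKO A and 7.26 in cKO B, against 7.64 in Control A and 7.62 in Control B. Only cKO B stood apart, below the other lenses, and the log2 fold change was -0.18 (limma adjusted p = 0.497). Its probes start 62897 bases apart in the coordinates of the files, against a length of 22861 bases for the gene in the RefSeq table, and they gave -0.17 and -0.19.

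Both retained Pfkp probes and 1 of the 3 Pfkm probes are shown, since these isozyme genes were called in opposite directions. They are printed as the files give them, all in lower case since no part is singled out. The Pfkp probe that starts at base 1632 of the transcript lies at chr13:6597148-6597197 on the minus strand and the one at base 513 at chr13:6620231-6620280 on the minus strand. The Pfkm probe at base 405 lies at chr15:97951347-97951396 on the plus strand. The files name no build for these positions.
Pfkp, base 1632: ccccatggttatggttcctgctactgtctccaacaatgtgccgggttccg
Pfkp, base 513: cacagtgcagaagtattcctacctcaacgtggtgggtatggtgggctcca
Pfkm, base 405: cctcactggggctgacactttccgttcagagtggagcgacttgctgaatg

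The Pfkp probe at base 1632 read 6.38 and 6.27 in cKO against 4.99 and 4.6 in Control, a log2 fold change of 1.53 (limma adjusted p = 0.00531), with Control B not above background. The Pfkp probe at base 513 was above background in the cKO lenses alone, so its difference of 0.36 is one against background. The Pfkm probe at base 405 read 4.98 and 4.86 in cKO against 5.69 and 5.59 in Control, or -0.73 (limma adjusted p = 0.0301). The other Pfkm probes gave -0.93 and -0.54, so all 3 pointed down, and 2 of them were called alone.

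A ratio of 2 genes within a lens is not moved by a constant factor on its array. The background correction, offset and quantile normalization used here are not such a factor, and the ratios are given under that processing alone. The absolute size of a ratio has no meaning since it depends on the probes. For Pfkp to Pfkm, the log2 ratio was -0.12 in cKO A and 0.15 in cKO B, against -1.49 in Control A and -1.83 in Control B. It was higher in both cKO lenses, by 1.68, but Pfkp was near or below background in the Control lenses, so the size of this difference depends on the background level. The ratio of Pfkp to Pfkl was higher in cKO by 1.12 and that of Pfkl to Pfkm by 0.55, in both cases without overlap, and the former has the same limit. These ratios, and those of the other isozyme pairs below, were chosen after the values were seen and were not tested. Their direction depends on which gene is put on top.

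Aldolase splits fructose bisphosphate into trioses. Aldoa, the aldolase of muscle and most other tissues, had a log2 signal of 11.48 in cKO A, 11.34 in cKO B, 10.11 in Control A and 10.37 in Control B. Both cKO lenses lay about a log2 unit above the Control lenses. Aldoa rose by 1.17 ± 0.16 (SE) on that scale, or 2.25-fold (limma adjusted p = 0.0101). Aldoa was the only member called whichever single lens was left out, with 1.03 to 1.30 on the log2 scale. Before scaling its intensity was 3504.6 and 3422.2 in cKO and 913.9 and 866.4 in Control. The brightest percentile of all probes then began at 3208.7 and 3444.3 in cKO and at 2158.4 and 1699.2 in Control. Bright probes were thus higher on the cKO arrays before scaling, and the raw gap of Aldoa includes that difference.

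Aldoc, the aldolase known from brain, was not called, at log2 11.67 and 11.69 in cKO and 11.64 and 11.32 in Control. The lowest cKO value was above the highest Control value by little, and the log2 fold change was 0.20 (limma adjusted p = 0.436). The log2 ratio of Aldoa to Aldoc was -0.20 and -0.35 in cKO against -1.54 and -0.95 in Control.

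Tpi1 encodes triose phosphate isomerase, which lets both trioses enter the later steps. Tpi1 had a log2 signal of 9.61 in cKO A, 9.57 in cKO B, 8.86 in Control A and 9.02 in Control B. The groups were separate, and the log2 fold change was 0.65 ± 0.14 (SE), or 1.57-fold (limma adjusted p = 0.0328). Its 3 probes gave 0.51, 0.71 and 0.74. The call was lost whichever of the 4 lenses was left out, with log2 fold changes from 0.58 to 0.73.

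**Figure D2:**
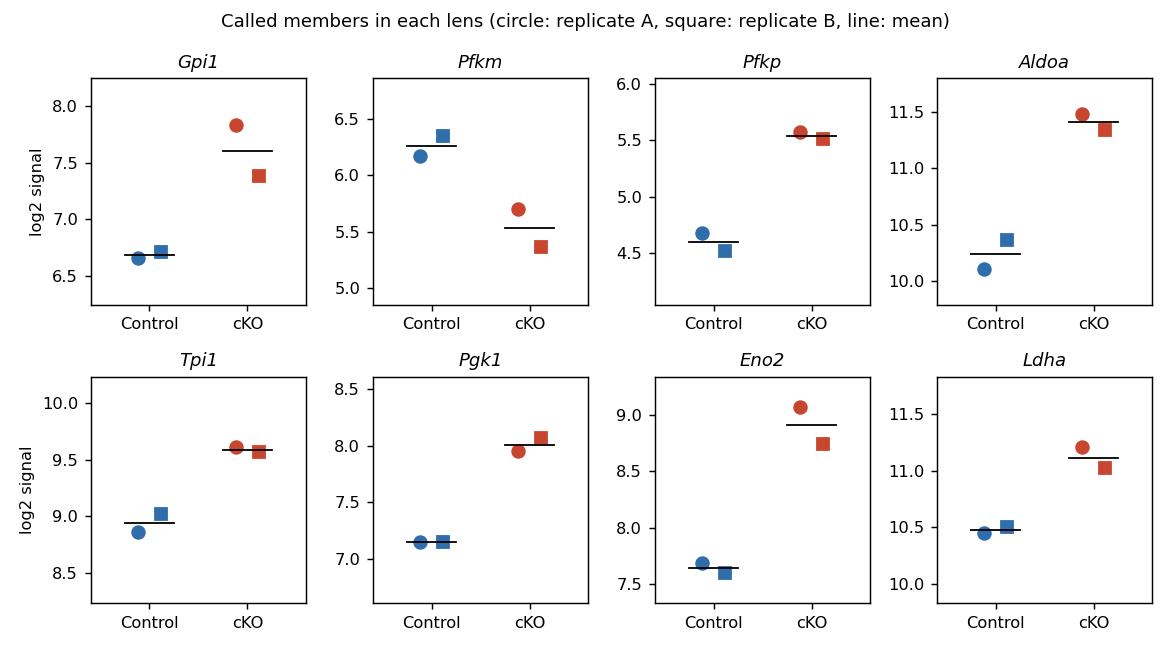
The log2 signal of each called member is plotted for the 2 Control and 2 cKO lenses, with circles for replicate A, squares for replicate B, a line at each mean, and a y axis that spans the same 2 log2 units in every panel. The cKO points lie above the Control points in 7 panels and below them for Pfkm.

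The triose to pyruvate steps held 6 tested genes, of which 2 were called, both elevated. Gapdh encodes the dehydrogenase that makes NADH from the triose and is often used as a reference gene. Gapdh had a log2 signal of 12.75 and 12.70 in cKO and 12.26 and 12.33 in Control. The groups did not overlap, and the log2 fold change of 0.43 ± 0.14 (SE) was under the threshold (limma adjusted p = 0.0814).

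Pgk1 encodes phosphoglycerate kinase, which makes ATP from its substrate. Pgk1 had a log2 signal of 7.95 in cKO A, 8.07 in cKO B, 7.15 in Control A and 7.15 in Control B. The Control lenses coincided and both cKO lenses were higher. Pgk1 rose by 0.86 ± 0.14 (SE) on the log2 scale, or 1.82-fold (limma adjusted p = 0.0157). The gene value averages a bright probe, which rose by 1.40 (limma adjusted p = 0.0052), and a dim probe, which was above background in the cKO lenses alone, so that its difference of 0.32 is one against background. The gene value was 1.36 without cKO A and 1.45 without cKO B, when the dim probe no longer passed the detection filter. Without Control B it was not called.

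Pgk1 lies on the X chromosome, as do the members Pdk3, Pdha1 and G6pdx. All 4 were higher in both cKO lenses (median log2 fold change 0.38), as were 145 of the 336 X-linked genes tested and 32.6% of all genes. Of the 4, Pgk1 was the only one called. Over the 336 X-linked genes tested the median was 0.13, 11.3% were called elevated and 3.87% reduced. The part of the sex-linked difference between the groups in these values was not tested.

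Pgam1 encodes the phosphoglycerate mutase of brain and many other tissues. It had a log2 signal of 8.58 and 8.45 in cKO and 8.05 and 7.76 in Control, without overlap. The log2 fold change of 0.61 ± 0.16 (SE) was over the fold threshold, with a limma adjusted p of 0.0515, and it was called in 8 of 18 alternatives that used all lenses. Pgam2, the muscle type and one of the further pathway genes below, moved the other way. Its log2 signal was 11.22 and 11.29 in cKO and 12.64 and 12.33 in Control. Pgam2 was reduced by -1.23 ± 0.16 (SE) on the log2 scale (limma adjusted p = 0.00931). The log2 ratio of Pgam1 to Pgam2 was higher in both cKO lenses, by 1.85.

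Eno2 encodes the enolase known from neurons. Eno2 had a log2 signal of 9.07 in cKO A, 8.74 in cKO B, 7.69 in Control A and 7.60 in Control B. Both cKO lenses were more than a log2 unit above both Control lenses. Eno2 was elevated by 1.26 ± 0.16 (SE) on the log2 scale, or 2.39-fold (limma adjusted p = 0.00954). Without Control B the call was lost, at log2 fold changes of 1.09 to 1.42 over the lenses left out.

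Eno1, the enolase of most tissues, was at log2 12.53 and 12.39 in cKO, 11.45 in Control A and 12.30 in Control B. The Control lenses were farther apart than the group means, and Control B lay just under the cKO lenses. The log2 fold change was 0.58 ± 0.27 (SE, limma adjusted p = 0.187), and it was 0.15 without Control A and 0.99 without Control B. The log2 ratio of Eno2 to Eno1 was -3.46 and -3.65 in cKO, -3.76 in Control A and -4.70 in Control B.

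Pkm encodes pyruvate kinase of muscle and most other tissues, which makes the last ATP of the pathway. It was the only gene of these steps with lower values in cKO, with a mean log2 signal of 9.29 ± 0.15 (SD, n = 2) against 9.65 ± 0.08 (SD, n = 2). The groups did not overlap, and the log2 fold change was -0.36 ± 0.15 (SE, limma adjusted p = 0.15). Its probes gave -0.45 and -0.27. The probes were assigned to the gene and not to the splice forms M1 and M2.

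**Figure D3:**
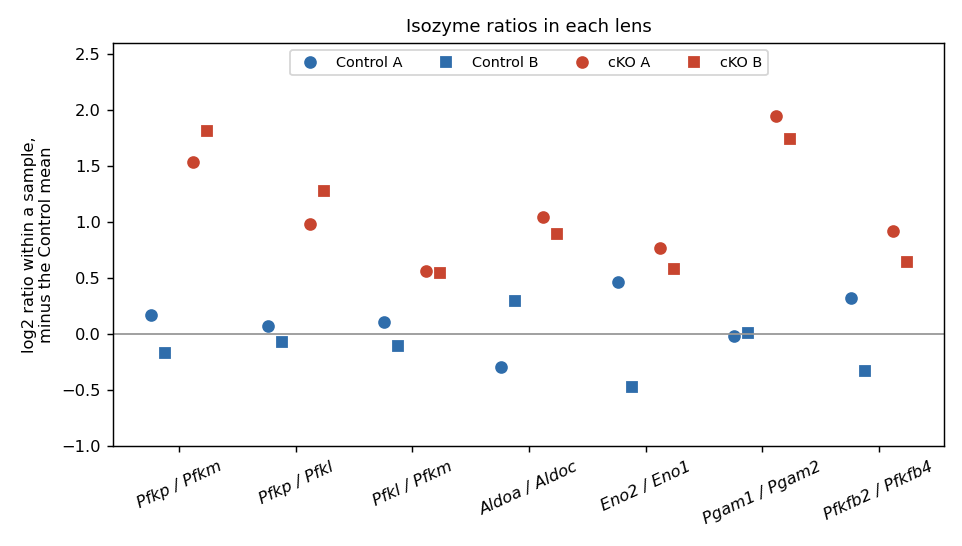
For 7 pairs of isozyme genes, the log2 ratio within each lens is plotted after subtraction of the mean of the Control lenses, with colours for the group and circles and squares for replicates A and B. Both cKO lenses lie above both Control lenses for all 7 pairs, by 1.85 for Pgam1 over Pgam2 and by 1.68 for Pfkp over Pfkm, where Pfkp was near or below background in Control. The pairs were chosen after the values were seen, and the direction depends on which gene is put on top. No ratio was tested.

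Over the glycolytic reaction steps from hexokinase to pyruvate kinase, 14 of 15 genes were tested, 7 were called, and the median log2 fold change was 0.60. Of all genes 11.7% were called, with a median of 0.01. The number of pentose phosphate genes called was 0 of 8, and the difference between these sets was not tested. Several glycolytic genes have processed pseudogenes, and whether a probe also binds their transcripts was not tested.

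Lactate production was represented by Ldha, the lactate dehydrogenase subunit that predominates in glycolytic tissue. Ldha had a log2 signal of 11.21 in cKO A, 11.02 in cKO B, 10.45 in Control A and 10.50 in Control B. Both cKO lenses were above both Control lenses. Ldha was elevated by 0.64 ± 0.14 (SE) on the log2 scale, or 1.56-fold (limma adjusted p = 0.0374), and the call was lost whichever of the 4 lenses was left out. Slc16a1 and Slc16a3 encode the lactate carriers MCT1 and MCT4. Slc16a1 was above background on no array, and of 3 Slc16a3 probes 1 was above background, in cKO B alone.

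The PFKFB enzymes make and break the fructose bisphosphate that activates phosphofructokinase. Pfkfb2 had a log2 signal of 6.15 and 5.95 in cKO and 5.71 and 5.31 in Control, and its log2 fold change was 0.54 ± 0.18 (SE, limma adjusted p = 0.0956). Pfkfb4 had 5.40 and 5.47 in cKO and 5.56 and 5.82 in Control, with -0.25 ± 0.15 (SE, limma adjusted p = 0.301). Neither was called, and in both cases the groups did not overlap. Pfkfb3 was above background on no array.

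Entry of pyruvate into the mitochondrion goes through pyruvate dehydrogenase, whose kinases switch it off. None of the 5 genes tested was called by limma, and 2 had an unadjusted p under 0.05, beside 31.9% of all genes. Pdhb, the beta subunit of the enzyme, differed by 0.61 ± 0.17 on the log2 scale (SE, limma adjusted p = 0.0616), at a mean of 6.64 ± 0.25 in cKO and 6.03 ± 0.13 in Control (SD, n = 2 each). Of its 3 probes, 1 was above background in the cKO lenses alone, and the log2 fold change was 0.56 over the probes detected in all 4 lenses. Pdha1, the catalytic alpha subunit, was at 8.41 in cKO and 8.14 in Control. Pdk3, a kinase of the complex, had 0.50 ± 0.17 (SE, limma adjusted p = 0.0943). Pdk1 overlapped between the groups at 0.15. The means of these 4 genes were higher in cKO. Pdk2 was above background in the cKO lenses alone, so that it had no measured Control level. Pdk4 was above background on no array.

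The pentose phosphate pathway was tested in full on this list, with 8 of 8 genes, and no gene was called by limma, with 0 at an unadjusted p under 0.05. Of all genes, 31.9% had an unadjusted p under 0.05. Leaving out Rpe, which had no measured Control level, 3 genes had higher and 4 lower means in cKO. The oxidative branch makes NADPH. Its entry enzyme, glucose phosphate dehydrogenase (G6pdx), had a mean log2 signal of 7.16 in cKO and 7.01 in Control, and its log2 fold change was 0.15 ± 0.13 (SE, limma adjusted p = 0.484). H6pd, the counterpart in the endoplasmic reticulum, had -0.10, and Pgls, the lactonase, had -0.29 (limma adjusted p = 0.199). Pgd, phosphogluconate dehydrogenase, which makes further NADPH, had 0.05, and its groups overlapped.

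The non-oxidative branch returns pentose phosphates to glycolysis. Rpia, the ribose phosphate isomerase, had a log2 fold change of 0.07. Rpe, the ribulose phosphate epimerase, was above background in the cKO lenses alone. Taldo1, transaldolase, had -0.12, and its groups overlapped.

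Tkt, transketolase, differed by -0.34 ± 0.16 on the log2 scale (SE, limma adjusted p = 0.193). Its brightest probe read 10.91 in cKO A, 10.68 in cKO B, 11.64 in Control A and 11.52 in Control B. On that probe both cKO lenses were lower, by -0.79 (limma adjusted p = 0.0279), and it passed the thresholds alone. The other Tkt probes gave -0.17 and -0.07. Before scaling, the brightest Tkt probe overlapped between the groups, at 2383.2 and 2182.7 in cKO and 2585.7 and 1922.8 in Control.

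Fitted one by one, 12 of the 45 retained probes of the members were called, beside 11.3% of all probes. Of these, 9 were elevated (5.86% of all probes were) and 3 were reduced (5.40% of all probes were). The elevated probes include the dim Gpi1 probe, which passed the detection filter through the cKO lenses alone. The probes of Pgk1, Pfkp and Tkt differed most within a gene. For each of these genes the brightest probe had the largest change.

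**Figure D4:**
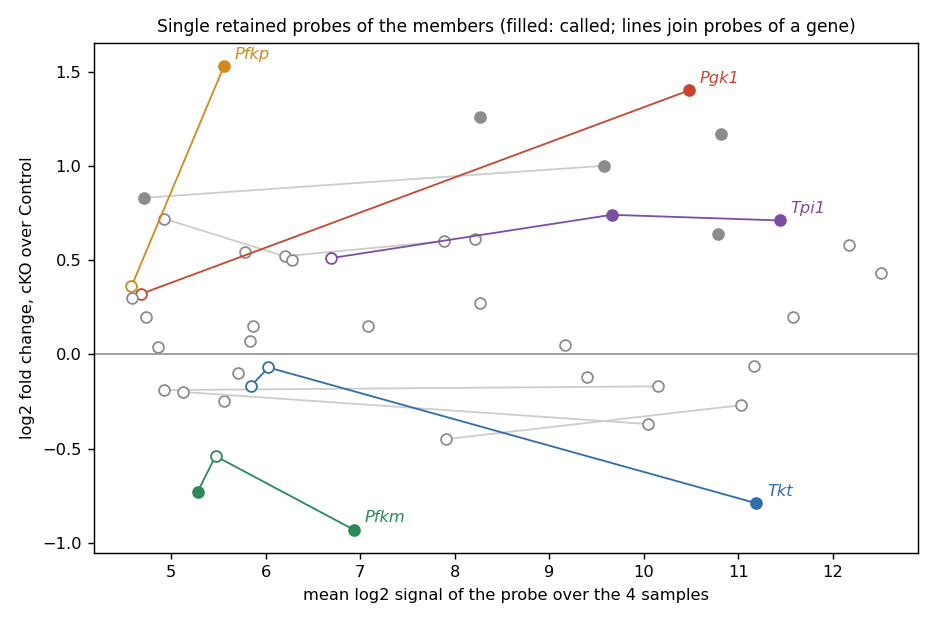
Each of the 45 retained probes is a point, with its mean log2 signal over the 4 lenses on the x axis and its log2 fold change of cKO over Control on the y axis. Filled points were called and lines join probes of a gene. The brightest probes of Pgk1 and Pfkp lie at 1.40 and 1.53 and their dim probes at 0.32 and 0.36, and the brightest Tkt probe lies at -0.79.

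Hypoxia-inducible factors are known activators of glycolytic genes and bind the core letters ACGTG or GCGTG. The 250 bases upstream of each annotated start were searched for both words on either strand. Matches that overlap, as in CACGTG, which holds ACGTG on both strands, were joined into 1 stretch. A gene with several starts was counted if any of its windows held a match. Of the 31 tested members, 83.9% held either word, against 61.7% of the 8072 tested genes that have a promoter in the RefSeq table and 41.5% of all 27025 genes in it. The table held promoters for 8072 of the 11516 tested genes. Of the 7 elevated members 4 did (57.1%), and of the 23 members not called 91.3% did. ACGTG alone was in 35.5% of the members, in 25.5% of the tested genes with a promoter and in 18.5% of all genes.

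Ldha held the most ACGTG matches of the called members, Pgk1 and Aldoa held ACGTG too, and Eno2 held neither word. The windows of these elevated members are shown. They are from RefSeq on GRCm38.p6, each 5′ to 3′ on the strand of its gene and ending at the base before the start, with matches in capitals. The Pgk1 window is chrX:106186850-106187099 on the plus strand and the Ldha window chr7:46845554-46845803 on the plus strand. The Aldoa window is chr7:126799255-126799504 and the Eno2 window chr6:124769674-124769923, both on the minus strand.
Pgk1: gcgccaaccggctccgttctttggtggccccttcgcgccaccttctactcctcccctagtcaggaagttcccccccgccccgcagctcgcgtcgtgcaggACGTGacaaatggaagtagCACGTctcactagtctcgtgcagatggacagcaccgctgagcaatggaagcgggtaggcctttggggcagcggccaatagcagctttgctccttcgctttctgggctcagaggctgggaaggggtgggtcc
Ldha: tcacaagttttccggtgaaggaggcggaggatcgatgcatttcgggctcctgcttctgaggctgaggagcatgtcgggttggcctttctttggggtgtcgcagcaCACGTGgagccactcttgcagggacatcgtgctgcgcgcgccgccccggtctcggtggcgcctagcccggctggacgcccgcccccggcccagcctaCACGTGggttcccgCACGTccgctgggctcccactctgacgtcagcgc
Aldoa: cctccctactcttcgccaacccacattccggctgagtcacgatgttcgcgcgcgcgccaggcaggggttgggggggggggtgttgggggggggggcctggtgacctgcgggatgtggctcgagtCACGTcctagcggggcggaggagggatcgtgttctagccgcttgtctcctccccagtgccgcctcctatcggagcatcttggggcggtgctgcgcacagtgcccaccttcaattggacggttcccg
Eno2: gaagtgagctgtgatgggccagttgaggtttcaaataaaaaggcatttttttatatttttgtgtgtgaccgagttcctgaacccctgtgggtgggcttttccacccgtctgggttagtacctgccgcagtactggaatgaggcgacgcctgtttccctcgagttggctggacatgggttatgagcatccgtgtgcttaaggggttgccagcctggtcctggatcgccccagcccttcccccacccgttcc

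The Pgk1 window held 2 separate stretches, the Ldha window 3 and the Aldoa window 1. Aldoa and Ldha have other annotated starts, whose windows are not shown. Gpi1, Tpi1 and Eno2 held neither word, and Pfkp held GCGTG in 3 places. Pfkm, the only reduced member, held both words in the windows of its annotated starts, which are not shown. A match is a word in a window and says nothing of binding.

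The hypoxia-inducible factors and their regulators gave 0 calls among 7 genes tested by limma, with 2 at an unadjusted p under 0.05, beside 31.9% of all genes. Hif1a, the oxygen-regulated subunit, had a log2 signal of 6.40 and 6.23 in cKO and 6.70 and 6.84 in Control, lower in both cKO lenses by -0.46 ± 0.15 (SE, limma adjusted p = 0.0857). Of 8 known hypoxia-responsive genes outside glycolysis, 2 were called elevated, beside 6.01% of all genes. Ddit4, an inhibitor of mTORC1 signalling, rose by 1.81 ± 0.16 (SE, limma adjusted p = 0.00343). Ankrd37 rose by 1.30 ± 0.24 (SE, limma adjusted p = 0.022), with Control B not above background. The median of the 8 genes was 0.03, against 0.01 over all genes.

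Further genes of sugar metabolism, 66 genes for other isozymes, transporters, gluconeogenic and linked enzymes, held 29 tested genes. Of these 4 were called, 3 elevated and 1 reduced, beside 11.7% of all genes. Their median log2 fold change was 0.16, against 0.01 over all genes. Rbks, ribokinase, which phosphorylates free ribose, had a log2 signal of 7.76 and 7.83 in cKO and 6.31 and 6.27 in Control, and rose by 1.51 ± 0.14 (SE, limma adjusted p = 0.00394). Pgm1, a phosphoglucomutase, which links glycogen to glycolysis, rose by 0.82 ± 0.14 (SE, limma adjusted p = 0.0184). Idh1, the cytosolic NADP-dependent isocitrate dehydrogenase, rose by 0.63 ± 0.16 (SE, limma adjusted p = 0.0495). Pgam2 was the reduced gene. With cKO A, cKO B or Control B left out, 2 genes of this list were called each time.

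Scaling between arrays set the level against which these values are read. With each array set to the same median, or with no scaling, the median of all genes was 0.53 and 0.57 on the log2 scale, and 21 of 31 members were called, all elevated. Of all genes, 47.0% and 50.3% were then called, with 45.8% and 49.1% elevated. Read against the median of all genes, the 7 elevated members stayed above it in each alternative that used all 4 lenses and tested them, with a lowest value of 0.52 for Pfkp and 1.12 and 1.13 for Aldoa and Eno2. Pfkm stayed at -0.47 or lower against that median, and Pfkl, Pkm, Pfkfb4, H6pd, Pgls and Tkt stayed below it as well. Their sign without that reference turned positive under both of these scalings, except for Pfkm, which was at -0.14 at its weakest. Slc2a1, Taldo1, Hk1, Pdk2 and Rpe changed side even against that median. None of the 8 members was called with the deposited normalized values set to a floor of 1, with no detection filter, or with a test against the fold threshold itself.

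**Figure D5:**
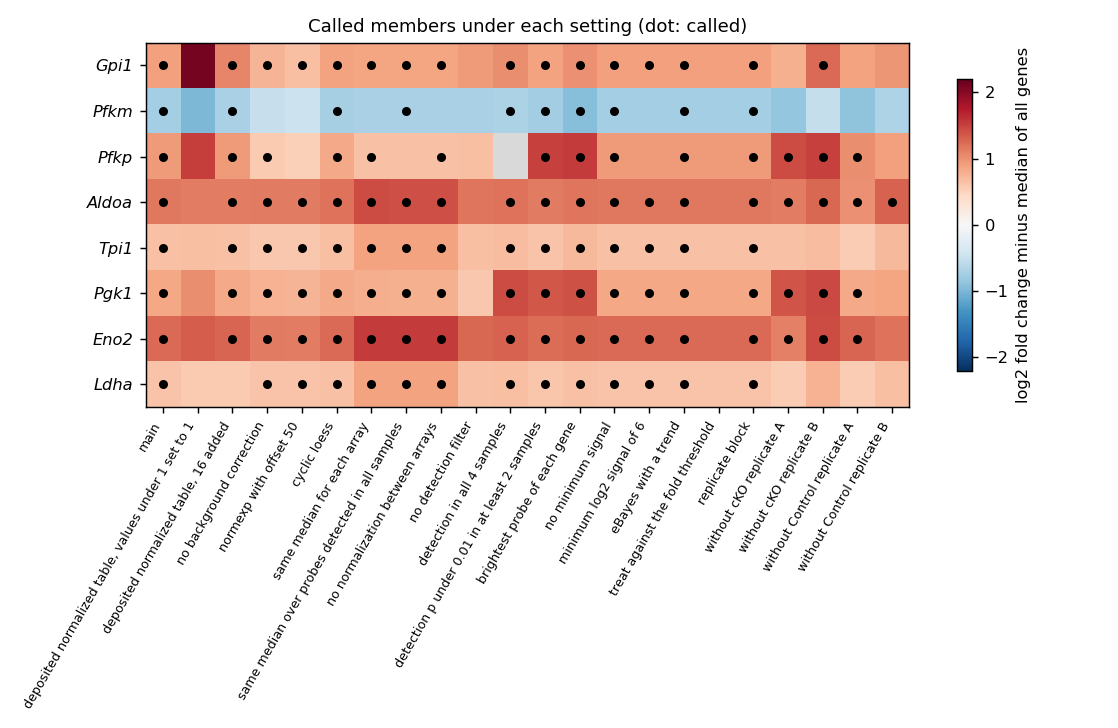
Each cell gives the log2 fold change of a called member (row) minus the median of all genes under a setting (column), in red for higher and blue for lower in cKO, with a dot where the gene was called and grey where it was not tested. The colours keep their direction in each row, and no dot stands in the columns for the floor of 1, for no detection filter and for the test against the fold threshold.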

How the data were processed

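RNA of 2 Celf1 cKO and 2 Control lenses was hybridised to Illumina BeadChips. The authors deposited a table of unnormalized intensity and a table of normalized intensity, scaled by the rank-invariant method per the file headers, with a detection p-value and bead statistics for each probe. Each held 45281 probes. Lines with shifted cells in the unnormalized table (18) were left out, so 45263 probes were used. Probes were named by the symbol of the files for the members and otherwise through a RefSeq gene table (GRCm38.p6), where 8334 kept the symbol of the files.

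The unnormalized intensity was background corrected with the neqc method of limma (version 3.58.1, R version 4.3.3; offset 16, negative controls inferred from the detection p-values), quantile normalized and log2 transformed. Probes were kept at a detection p under 0.05 in at least 2 samples (16262), and log2 values were averaged over a gene's probes. Groups were compared by lmFit and eBayes in two-sided tests, and p-values were adjusted across all 11516 genes (Benjamini-Hochberg). The thresholds, the average and the rule of 2 samples follow the study's methods. Its edgeR model is for counts and was not applied to intensities. With 2 arrays in each group the smallest two-sided exact permutation p is 0.333, and the number of arrays limits the precision. Fits were tested on simulated data.

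The members and all gene lists were chosen with earlier results of these data known. Every member was named or counted. Of the further lists the called genes were named, at most 5 for each. The alternatives covered the table, background correction, scaling, filters, probes, variance model, replicate letter and each sample left out. Tables were read with Python version 3.11.15.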

Additional observations from a re-analysis of the deposited data

How the results depend on the processing

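The count of 8 members called was 0 with the deposited values floored at 1, with no detection filter and with a test against the fold threshold, where 12, 17 and 4 members had an unadjusted p under 0.05, beside 27.5%, 16.6% and 5.05% of all genes. It was 21 with the same median for each array and 21 with no normalization. Leaving out 1 lens gave 1 to 5 members called and 1 to 5 elevated. The 7 elevated members became 0, 0 and 0 under the same 3 settings that ended the calls, and 21 and 21 under the same 2 scalings. The 1 reduced member became 0 under these 5 settings, with no background correction, with normexp (offset 50) and with a minimum log2 signal of 6, and 0 to 0 with 1 lens left out. It became 2 with the brightest probe of each gene (Pfkm and Tkt) and 3 with probes fitted one by one. The member median of 0.20 moved to 0.91 with the same median for each array and to 0.95 with no normalization. Under these, Slc2a1 turned from -0.06 to 0.69 and 0.72 and Taldo1 from -0.12 to 0.70 and 0.74, while the median of all genes was 0.53 and 0.57.

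The 4 further pathway genes called became 0 with the floor of 1, 1 with no detection filter, 1 with the test against the threshold, 16 with the same median for each array, 7 with the same median over detected probes, 16 with no normalization, and 2 to 5 with 1 lens left out. The 1344 genes called in all became 7 with the floor of 1, 820 with normexp, 5417 with the same median, 2692 with the same median over detected probes, 5789 with no normalization, 155 with no filter, 879 with a minimum signal of 6, 82 with the test against the threshold, and 113 to 1310 with 1 lens left out. The no-filter setting tested 28844 genes, and 1 lens fewer leaves an arm with 1 sample that is assumed to vary like the other arm. What caused the remaining changes was not tested.

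The replicate letter is not stated to pair the lenses, and the A minus B differences of the groups correlated at -0.0105 over 11516 genes. With the replicate letter as a block, 10 members were called, Pdhb (limma adjusted p = 0.0464) and Pgam1 (limma adjusted p = 0.0322) among them, 4 further pathway genes, and 1751 genes in all (15.2%). The slide as a block was not run, since no slide is given in the sources used here. Signal near background limits Hk1, Pfkp, Pdk2 and Rpe, which were not detected on every array.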

Other observations

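Txnip and Arrdc4, a pair of related arrestin-domain genes whose transcription is known to follow glucose through the MondoA and ChREBP factors, were called in opposite directions. Txnip, which restrains glucose uptake, had a log2 signal of 8.31 and 8.44 in cKO and 6.45 and 6.57 in Control. Both cKO lenses were higher, by 1.86 ± 0.14 (SE, limma adjusted p = 0.00246). Arrdc4 had 8.40 and 8.64 in cKO and 9.31 and 9.55 in Control. Both cKO lenses were lower, by -0.91 ± 0.16 (SE, limma adjusted p = 0.0207). Of the 9 glucose-sensing genes listed, 5 were tested and these 2 were called, beside 11.7% of all genes. Mlxip, which encodes MondoA, was above background in the cKO lenses alone.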
